A study of Rattus norvegicus with 12 samples.

Results

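Both Nogo-A antibodies were compared with both controls: the 6 arrays of rat hippocampal slice cultures treated with 11C7 or 7B12 were set against the 6 arrays of untreated (NT) and control-IgG-treated cultures, which are all 12 arrays of the series. The genes described are those on the same side of both same-number controls in all 6 antibody arrays. A probe set was counted as higher when each antibody array lay above both the NT array and the IgG array that carry its replicate number, and as lower when each lay below both. Of 31042 probe sets, 328 were higher (1.06%) and 251 were lower (0.809%), 579 in all. They named 248 genes among the higher and 153 among the lower probe sets, 399 different genes of the 14217 that have a probe set with 1 gene symbol. These values chose the genes, so their differences between antibody and control arrays are given as a description, without a test.

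All cultures were 350 µm slices of hippocampus from Wistar rats at postnatal day 7, placed 4 to an insert and held at 33 °C until 26 days in vitro. The NT group received no antibody, whereas the other groups were given 3 µg/ml of a purified monoclonal antibody from day 21 in vitro for 5 days, with a change of medium every 2 days. The IgG control is an antibody against wheat auxin, 11C7 was raised to residues 623 to 640 of Nogo-A, and 7B12 binds residues 763 to 820. Each group holds 3 arrays, each from 24 pooled cultures, and the replicates were separate cultures from different animals per the labels, which give the animals' sex for none of them. In whole slices, more cells of a type and more RNA per cell cannot be told apart.

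Nogo-A, the longest product of Rtn4, sits in the membranes of oligodendrocytes and of some nerve cells and is known for halting growth cones through receptors that include Rtn4r with its partners Lingo1, Ngfr and Tnfrsf19, and S1pr2. Slice cultures keep neurons, astrocytes, oligodendrocytes, microglia and vessel remnants in place. Microglia and astrocytes answer alarm signals with chemokines and acute-phase proteins through NF-kappaB, and with interferon-stimulated genes through interferon receptors, Stat proteins and Irf factors.

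The deposited values are ratios, each relative to a reference of its own probe set, and were taken as log2 less the median of the array, which lay between -0.13 and -0.02 in the 12 arrays. A value of 0 is therefore near the middle of the 12 arrays for most probe sets, a difference of 1 is a doubling, and levels cannot be compared between genes or checked for the presence of hippocampal markers. The arrays of 1 number resembled one another: the mean of the 24 general neuronal markers lay between -1.57 and -1.06 in the arrays numbered 1, between 0.28 and 1.14 in those numbered 2 and between -0.13 and 0.09 in those numbered 3. Array 11C7 1 stood apart from 11C7 2 and 11C7 3 in the inflammatory lists and was close to 7B12 1, with a mean over 16 acute-phase genes of 1.396 against -0.68 and -0.36, and 1.24 in 7B12 1. The medians of the immune lists, and most members named from them, are therefore given with and without 11C7 1.

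The fit over all probe sets, with the replicate number as a block (limma, two-sided, Benjamini-Hochberg adjustment), asked whether the mean of both antibodies differed from the mean of both controls. No probe set passed an adjusted p of 0.05 (0 of 31042, 0%), and the lowest adjusted p was 0.429. At an unadjusted p under 0.05, 1385 probe sets were higher (4.46%) and 1166 lower (3.76%), 2551 together, where 5% of those tested is 1552. The methods' analysis of variance also called 0 after adjustment. Over genes, each taken as the mean of its probe sets, the lowest adjusted p was 0.328, 857 genes were higher at an unadjusted p under 0.05 (6.03%) and 551 lower (3.88%). No difference of a single gene given here passed the adjusted threshold, and each is followed by its standard error from this fit.

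Among the 328 higher probe sets the difference ranged from 0.084 to 5.11, with a median of 0.43, and it reached 2-fold in 63. Among the 251 lower probe sets the median was -0.40 and 53 reached 2-fold. In 29 of the higher and 40 of the lower probe sets (8.8% and 15.9%) the 12-array median ratio lay below 1, as it did in 23.6% of all, and 37 of the 63 higher and 14 of the 53 lower probe sets that reached 2-fold had a 12-array median of 1. In 30 higher and 22 lower probe sets all 6 antibody arrays lay beyond all 6 control arrays, whatever their number. By the mean of the probe sets of each gene, 194 genes were higher (1.36%) and 105 lower (0.739%), and the counts for gene lists below are of this kind.

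Immune genes made up most of the higher genes that any of the 40 lists held, but most of the 194 higher genes were in none of the lists. In 13 lists on innate immunity, 253 genes were measured, of which 25 were higher (9.88%, against 1.36% of all genes) and 1 was lower (0.395%, against 0.739%). In the other lists, which hold 695 further genes, 3 were higher and 3 lower (0.432% each). The median difference was 0.39 over the immune lists and -0.01 over the others, where all genes had 0.02. These lists were drawn up with earlier results of these data known, so the counts describe where the members lie. A count of 0 or 1 in a single list is near the share over all genes, and nothing is read from it.

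**Figure D1:**
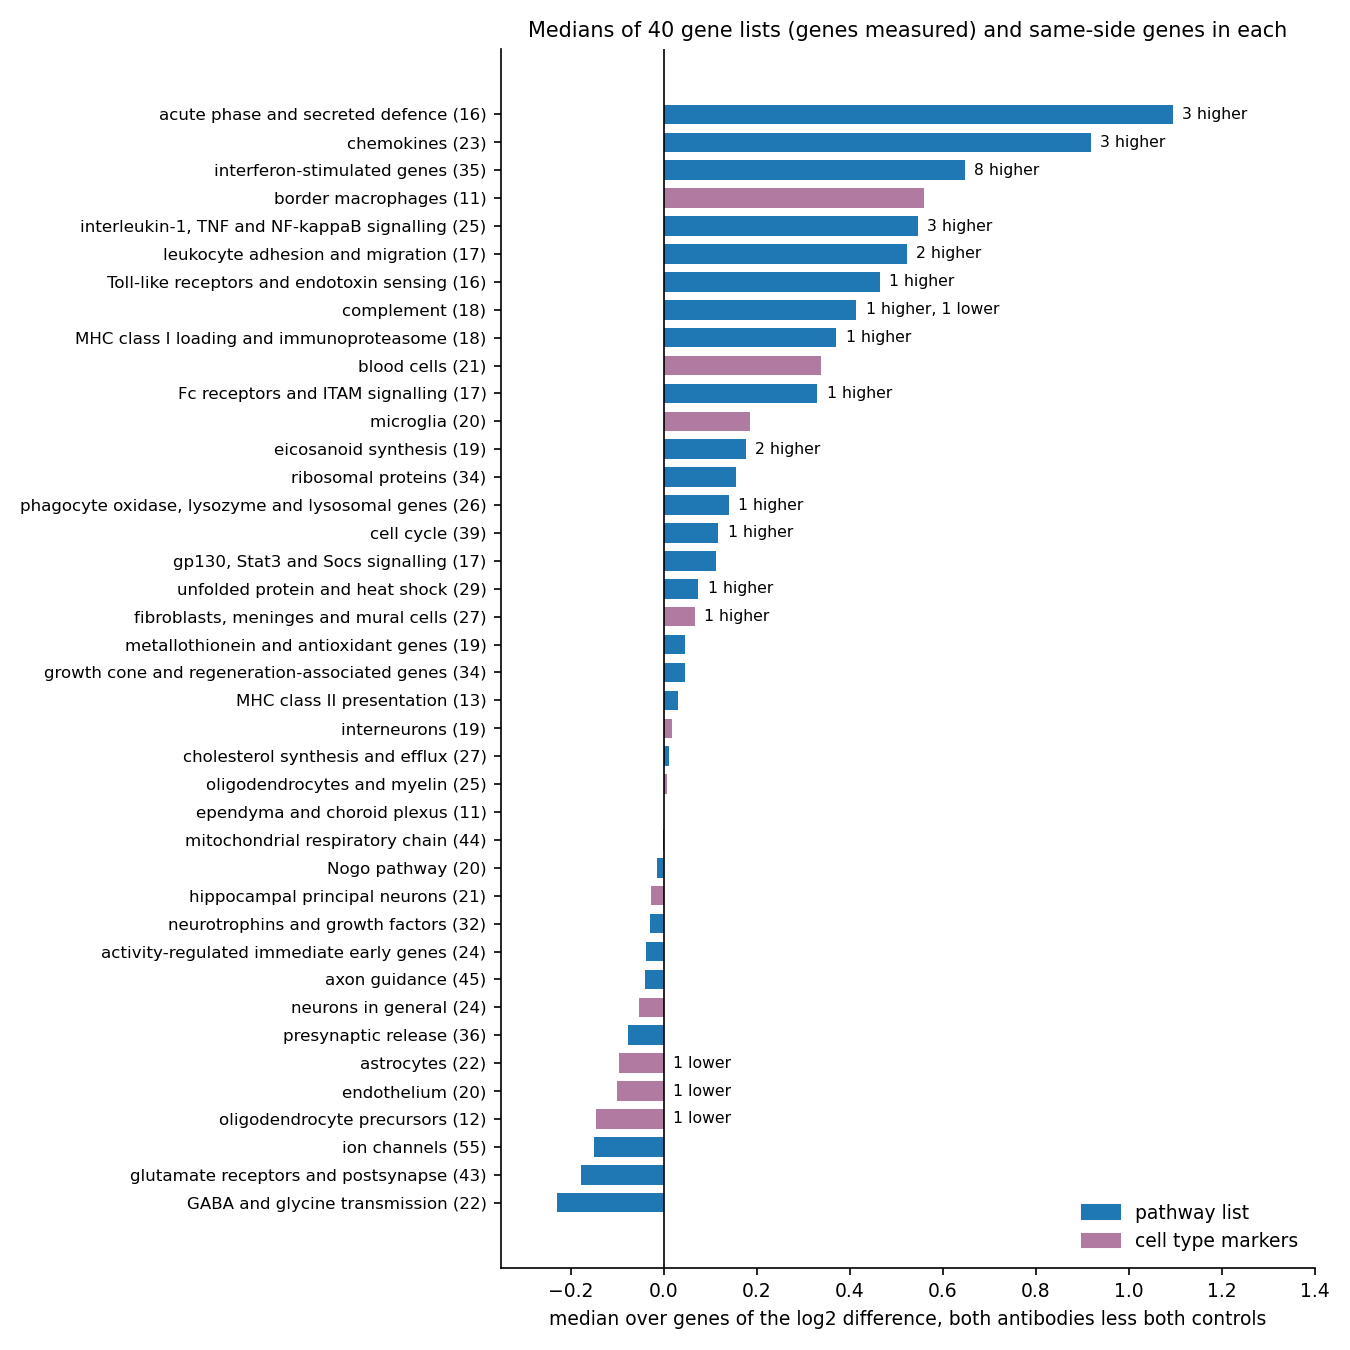
Median log2 difference, both antibodies less both controls, over the measured genes of each of 40 gene lists (horizontal bars from 0), with the counts of genes on the same side in all 6 antibody arrays printed beside each bar; blue bars are pathways and purple bars cell type markers. Acute-phase genes (1.10), chemokines (0.92) and interferon-stimulated genes (0.65) have the longest bars, and GABA and glycine transmission (-0.23) and glutamate receptors (-0.18) the lowest.

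Interferon-stimulated genes gave 8 members, more than any other list. Of 35 measured, these 8 were higher and 0 lower, 34 had a difference above 0, and 24 were higher at an unadjusted p under 0.05. The median difference was 0.65, and it was 0.55 without 11C7 1 and 0.51 without 7B12 3. Oas1a makes the oligoadenylates that activate RNase L. Its values were 1.06, -0.05 and 0.52 in 11C7 1 to 3 and 0.47, 0.61 and 2.28 in 7B12 1 to 3, against -0.68, -0.99 and -0.97 in NT and -0.58, -1.24 and 0.11 in IgG. Every antibody array lay at least 0.42 above its controls, and the difference was 1.54 ± 0.31 (SE), or 2.91-fold, although 11C7 2 lay below IgG 3.

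Isg15 encodes a ubiquitin-like protein that is joined to other proteins after interferon. It read 1.397, 0.39 and 0.12 in 11C7 and 1.15, 1.29 and 3.02 in 7B12, and no control exceeded -0.01. The 6 antibody arrays were thus separate from the 6 controls, with a difference of 1.75 ± 0.40. Usp18 removes Isg15 from its targets. For it the 11C7 arrays gave 0.54, 0.80 and 0.33, the 7B12 arrays 0.79, -0.04 and 1.30 and the controls -0.64 to 0.15, a difference of 0.90 ± 0.23. Cmpk2, a mitochondrial nucleotide kinase, had 0.59, -0.06 and 0.09 in 11C7 and 0.52, 0.22 and 1.83 in 7B12, with controls at -0.67 to 0.10. Its difference of 0.74 ± 0.25 was 0.49 without 7B12 3, the array with its highest value.

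Irf7 is the transcription factor that amplifies type I interferon. Its arrays read 2.13, 0.14 and -0.31 in 11C7 and 2.63, 1.16 and 2.81 in 7B12, against 0.29, -0.42 and -0.62 in NT and -0.07, -0.29 and -0.32 in IgG. The lowest antibody array, 11C7 3, still lay above both controls numbered 3, and the difference was 1.66 ± 0.36. Gbp2, a guanylate-binding GTPase, had the difference 1.85 ± 0.40 but was not on the same side throughout, since 11C7 3 read -0.33 and IgG 3 -0.11. The remaining 3 list members on the same side, named after their values were seen, were Rsad2, whose product viperin blocks viral replication, at 1.44 ± 0.39, Ifit3, which binds other Ifit proteins, at 1.13 ± 0.37, and Parp9, an ADP-ribosyltransferase partner, at 0.34 ± 0.11. Without 11C7 1 the differences of the named members were Oas1a 1.36, Isg15 1.44, Usp18 0.93, Cmpk2 0.66 and Irf7 1.39.

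Promoters of 3 of these genes and of Cxcl10 are shown because they hold an interferon-type motif. The core of the element bound by interferon-activated complexes and Irf factors, TTTC and TTTC with any 2 bases between them, was searched on both strands in RefSeq promoters of GRCr8, each 300 bases long from 250 before to 50 after the start of the gene. It was present in 20 of 218 higher genes with a promoter in the table (9.2%), in 2 of 120 lower genes (1.7%), in 350 of 11700 genes on the array (3.0%) and in 1034 of all 27457 promoters (3.8%). Without the members of the interferon-stimulated list it was present in 16 of 211 higher genes (7.6%), within the whole list in 16 of 27 (59.3%), and among the higher probe sets' genes of that list in 4 of 7, namely Oas1a, Ifit3, Irf7 and Rsad2. The 16 of 211 include Cxcl10, Ifitm2 and B2m, which that list did not hold, so nothing is read from the 7.6%. A sequence of the kind bound by NF-kappaB, GGG and CC with any 5 bases between them, was present in 68.8% of the higher, 70.0% of the lower and 63.8% of array genes. TTCNNNGAA, the palindrome bound by Stat proteins, was present in 6.4%, 5.8% and 7.0%. The motifs may overlap and were counted separately, and a match is a description of the sequence, not a site. In the sequences of Oas1a (chr12:41330216-41330515, plus strand), Ifit3 (chr1:241527076-241527375, plus strand), Irf7 (chr1:205799974-205800273, minus strand) and Cxcl10 (chr14:15988816-15989115, plus strand), capitals mark the matches to the interferon-type motif, which lie on the opposite strand in Oas1a and Cxcl10.
Oas1a: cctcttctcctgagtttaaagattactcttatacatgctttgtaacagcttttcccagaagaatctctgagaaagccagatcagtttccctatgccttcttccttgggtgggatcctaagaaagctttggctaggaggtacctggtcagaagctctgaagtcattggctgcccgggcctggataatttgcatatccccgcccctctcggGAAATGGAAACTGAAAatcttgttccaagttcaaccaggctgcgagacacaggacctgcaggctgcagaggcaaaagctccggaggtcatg
Ifit3: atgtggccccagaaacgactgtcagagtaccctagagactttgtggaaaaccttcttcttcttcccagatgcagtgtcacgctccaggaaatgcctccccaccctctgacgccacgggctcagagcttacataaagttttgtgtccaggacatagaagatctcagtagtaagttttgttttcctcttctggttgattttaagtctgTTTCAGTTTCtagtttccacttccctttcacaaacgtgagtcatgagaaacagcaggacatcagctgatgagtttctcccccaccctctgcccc
Irf7: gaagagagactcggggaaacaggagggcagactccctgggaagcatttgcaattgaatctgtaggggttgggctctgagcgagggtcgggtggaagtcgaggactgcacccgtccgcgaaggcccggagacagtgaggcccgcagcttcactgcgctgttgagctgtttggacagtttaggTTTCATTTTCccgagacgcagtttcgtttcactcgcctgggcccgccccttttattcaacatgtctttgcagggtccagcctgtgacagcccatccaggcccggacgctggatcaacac
Cxcl10: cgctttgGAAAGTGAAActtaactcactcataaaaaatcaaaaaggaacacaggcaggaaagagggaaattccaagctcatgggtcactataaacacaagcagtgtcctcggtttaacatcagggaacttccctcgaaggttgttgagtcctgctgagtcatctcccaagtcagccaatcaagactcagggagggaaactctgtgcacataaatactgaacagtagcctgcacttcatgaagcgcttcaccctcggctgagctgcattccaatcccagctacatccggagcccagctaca
The match began 41 bases before the start in Oas1a, where 2 matches overlap, 44 before it in Ifit3, 69 in Irf7 and 243 in Cxcl10. Rsad2 and the class I light chain gene B2m held 1 match each, 147 and 150 bases before their starts, and the windows of Ccl7 and Saa3 held 0.

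Ccl7, Ccl2 and Cxcl10, which attract monocytes and T cells, were the chemokine members. Of 23 measured genes 3 were higher and 0 lower, 19 had a difference above 0, and the median of 0.92 became 0.67 without 11C7 1. Ccl7, a ligand of the monocyte receptor Ccr2, read 1.19, -0.18 and 0.50 in 11C7 and 0.64, 0.11 and 2.76 in 7B12, against -0.96, -2.34 and 0.07 in NT and -0.42, -1.76 and 0.06 in IgG. The controls numbered 3 lay above 11C7 2, but within each number the antibody arrays were at least 0.42 higher, with a difference of 1.73 ± 0.33. Ccl2, the main ligand of the same receptor, had a like arrangement: 0.60, -0.02 and 0.41 in 11C7, 0.07, 0.14 and 2.16 in 7B12, -1.60, -1.45 and 0.19 in NT and -0.996, -1.29 and 0.15 in IgG, a difference of 1.396 ± 0.27.

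Cxcl10, whose promoter is shown above, binds Cxcr3 on activated T cells. It read 2.36, 0.79 and 0.09 in 11C7 and 1.44, 2.35 and 3.52 in 7B12, and the controls ran from -0.82 to 0.02. All 6 antibody arrays lay above all 6 controls, by 2.11 ± 0.50 (4.32-fold), with 11C7 3 the closest to its controls. Cxcl13, which guides B cells, and Cxcl1, a ligand of the neutrophil receptor Cxcr2, differed by 2.75 ± 0.73 and 1.54 ± 0.36 but were not on the same side in every array. Without 11C7 1 the differences were Ccl7 1.54, Ccl2 1.19, Cxcl10 1.74, Cxcl13 1.96 and Cxcl1 1.42.

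Acute-phase and secreted defence genes had the highest median of the 40 lists. Of 16 measured, 3 were higher and 0 lower, and the median of 1.10 was 0.89 without 11C7 1. Saa3, a serum amyloid protein that leukocytes bind, had the largest difference of the 328 higher probe sets and the widest margin among those with 1 gene symbol, 0.97. It read 6.62, 0.02 and 0.61 in 11C7 and 6.52, 4.40 and 7.17 in 7B12, against -0.15, -0.95 and -1.16 in NT and 0.06, -2.17 and -0.92 in IgG. The 3 arrays of 7B12 and 11C7 1 stood far above all controls, while 11C7 2 stood just below IgG 1. The difference was 5.11 ± 0.86, or 34.4-fold, and 4.24 without 11C7 1. Its size depended on the scaling, and it was 3.50 with quantile normalization.

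Serping1, the inhibitor of the first complement proteases, read 1.11, 0.12 and 0.18 in 11C7 and 0.95, 0.59 and 1.01 in 7B12, above every control (-0.63 to -0.06). Its difference was 0.99 ± 0.19. Serpina3n, a protease inhibitor of reactive astrocytes, read 1.35, 0.39 and 0.002 in 11C7 and 1.10, 0.50 and 1.51 in 7B12, with controls at -0.86 to 0.09. It differed by 1.16 ± 0.22, with 11C7 3 the lowest antibody array and below NT 1. Lcn2, a siderophore-binding protein, and Timp1, an inhibitor of metalloproteinases, differed by 2.56 ± 0.52 and 1.12 ± 0.23 without being on the same side throughout. Without 11C7 1 the differences were Serping1 0.82, Serpina3n 1.01, Lcn2 2.03 and Timp1 0.96.

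**Figure D2:**
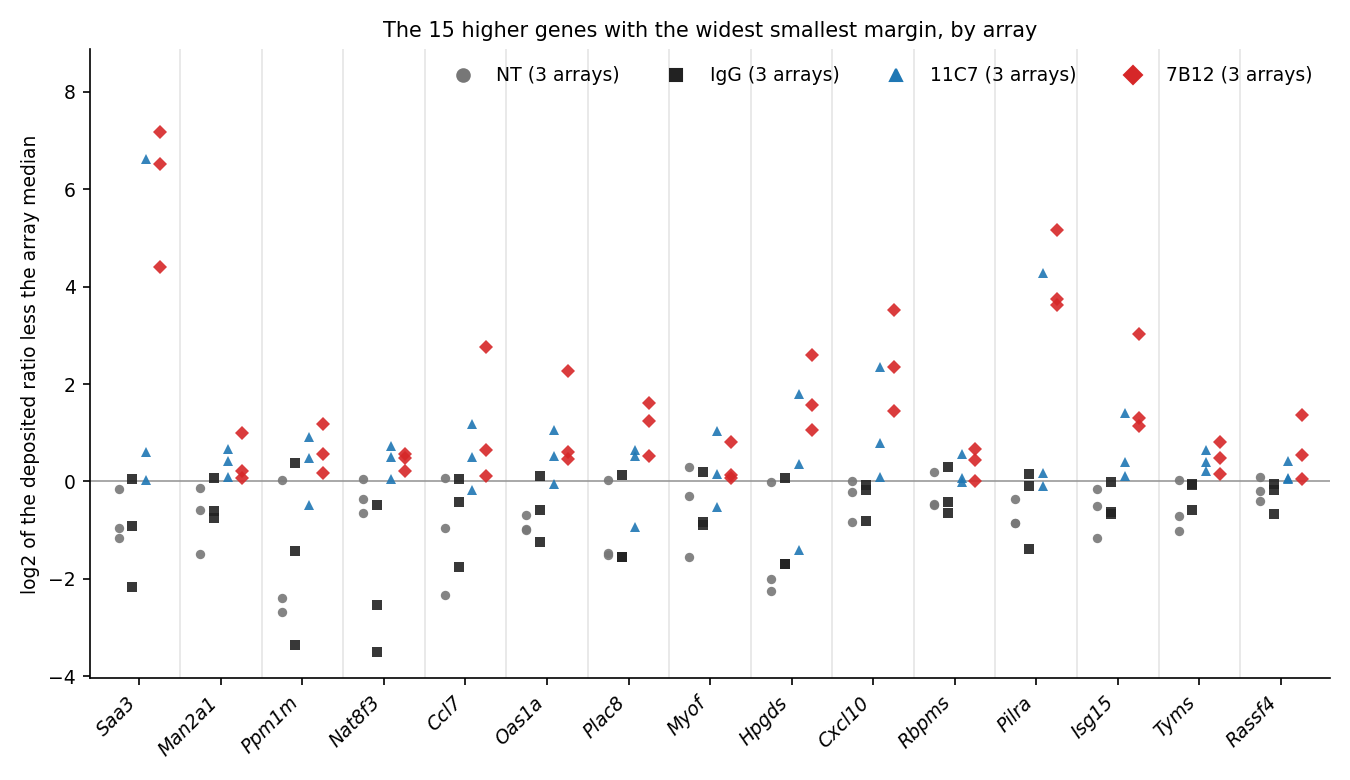
Log2 ratio less the array median (y axis) of the 15 higher probe sets with the widest margins among those with 1 gene symbol and a 12-array median of 1, 1 column a probe set, for the 3 arrays of each of the groups NT, IgG, 11C7 and 7B12 (points). In Cxcl10 and Isg15 the 6 antibody points lie above the 6 control points, and in Saa3 and Pilra 11C7 2 and 11C7 3 lie far below the other antibody arrays.

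NF-kappaB and its feedback inhibitors were represented as well. In the list of interleukin-1, TNF and NF-kappaB signalling 3 of 25 measured genes were higher and 0 lower, and 22 had a difference above 0, with a median of 0.55 and of 0.43 without 11C7 1. The 3 were Nfkb1, the precursor of the p50 subunit, at 0.43 ± 0.12, Tnfaip3, the deubiquitinating brake A20, at 0.69 ± 0.18, and Nfkbia, the inhibitor that holds NF-kappaB in the cytoplasm, at 0.55 ± 0.15. For Tnfaip3 the arrays read 1.06, -0.48 and 0.12 in 11C7 and 0.90, 0.15 and 1.26 in 7B12, against -0.06, -0.56 and 0.08 in NT and 0.003, -0.56 and -0.004 in IgG. Nfkbia stood at 0.80, -0.20 and -0.02 in 11C7, 0.65, 0.29 and 1.13 in 7B12 and -0.41 to 0.20 in the controls. Tnfrsf1b, a TNF receptor, and the cytokine Il18 differed by 1.19 ± 0.26 and 0.85 ± 0.19 and were not members. Without 11C7 1 the 3 members stood at Nfkb1 0.43, Tnfaip3 0.52 and Nfkbia 0.44.

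Among Toll-like receptors and endotoxin sensors 1 of 16 genes was higher and 0 lower (median 0.46, and 0.34 without 11C7 1). It was Cd14, which hands endotoxin to Tlr4. Its arrays read 2.31, -0.14 and 0.19 in 11C7 and 1.56, 1.26 and 3.42 in 7B12, and the controls -0.80 to 0.15. The 3 arrays of 7B12 and 11C7 1 stood above 1 on this scale, while 11C7 2 lay within the range of the controls and 11C7 3 just above it, a difference of 1.73 ± 0.44, or 1.34 without 11C7 1. Tlr7, the sensor of single-stranded RNA, and Irak3, a brake on Toll-like receptor signalling, differed by 0.71 ± 0.16 and 0.99 ± 0.23. In the list of gp130, Stat3 and Socs signalling 0 of 17 genes were on the same side (median 0.11, and 0.08 without 11C7 1, 0.014 without IgG 2 and 0.015 without NT 3), and Socs2 and Il6 differed by 1.12 ± 0.30 and 1.496 ± 0.54. For Il6, NT 3 and IgG 3 stood at -3.11 and -2.87, while the other controls lay between -0.38 and 0.43. Its difference was 0.48 without the arrays numbered 3.

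In antigen presentation the members by the mean of probe sets were few. RT1-M3-1, a non-classical class I gene, was the 1 higher gene of 18 in the class I and immunoproteasome list (median 0.37, and 0.29 without 11C7 1), at 0.37 ± 0.11, or 0.36 without 11C7 1. By single probe sets, 3 of this list were higher and 0 lower. B2m and the class I gene RT1-CE5 were also among the genes with a higher probe set. The peptide transporter gene Tap1 and the immunoproteasome subunit gene Psmb8 differed by 0.83 ± 0.18 and 0.75 ± 0.18. For Tap1 the controls differed from each other, with IgG less NT at -0.94 ± 0.26. Its difference was 1.305 against IgG alone and 0.36 against NT alone. In the class II list 0 of 13 genes were on the same side (median 0.03, and 0.02 without 11C7 1), with the class II chain gene RT1-Da at 0.88 ± 0.23. RT1-Ba had -0.03 ± 0.18 in 11C7 and 0.68 ± 0.18 in 7B12.

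The complement list held the 1 lower gene of the immune lists. Of its 18 genes Serping1 was higher, and Cd59b, a membrane inhibitor of the lytic complex, was lower at -0.35 ± 0.10, with a list median of 0.41, or 0.39 without 11C7 1, where Cd59b was -0.36. The Cd59b arrays read -0.18, -0.05 and 0.10 in 11C7 and -0.23, 0.06 and -0.37 in 7B12, against 0.19, 0.50 and 0.22 in NT and -0.16, 0.52 and 0.15 in IgG. The protease gene C1s and Itgax, a chain of a complement receptor, differed by 1.01 ± 0.21 and 1.57 ± 0.39.

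Genes of phagocyte signalling and adhesion gave 4 members by the mean of their probe sets. In the list of Fc receptors and ITAM signalling 1 of 17 was higher (median 0.33, and 0.23 without 11C7 1): Lyn, a Src-family kinase of myeloid cells, at 0.51 ± 0.11. No single probe set of this list met the rule, so Lyn was higher only by the mean of its 2 probe sets. Its arrays read 0.21, -0.55 and 0.20 in 11C7 and 0.28, 0.27 and 0.97 in 7B12, against -0.64 to 0.10 in the controls. The shared signalling chain Fcer1g and the receptor Fcgr3a differed by 0.85 ± 0.17 and 1.13 ± 0.25. In leukocyte adhesion and migration 2 of 17 were higher (median 0.52, and 0.44 without 11C7 1): Fermt3, which activates integrins in blood cells, at 0.52 ± 0.09 and the hyaluronan receptor Cd44 at 0.49 ± 0.15. Fermt3 stood at 0.47, -0.37 and 0.38 in 11C7, 0.67, 0.04 and 1.02 in 7B12 and -0.57 to 0.27 in the controls. The integrin chain Itgal and the GTPase Rac2 differed by 2.68 ± 0.49 and 1.52 ± 0.28 without being members. In the list of phagocyte oxidase, lysozyme and lysosomal genes 1 of 26 was higher (median 0.14, and 0.16 without 11C7 1), the protease gene Ctsl at 0.31 ± 0.11. Without 11C7 1 the differences were Lyn 0.42, Fermt3 0.46, Cd44 0.44 and Ctsl 0.24.

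The prostaglandin synthases Ptges and Hpgds were the 2 members among 19 genes of the eicosanoid list (median 0.18, with 0.20 without 11C7 1 and 0.31 without 11C7 2 or without 7B12 1). Ptges, which makes prostaglandin E, read 1.65, 0.86 and 0.45 in 11C7 and 0.79, 2.06 and 3.23 in 7B12, against -0.70, -0.82 and -0.12 in NT and -0.997, 0.14 and -0.91 in IgG. All 6 antibody arrays lay above all 6 controls, by 2.07 ± 0.44. Hpgds, which makes prostaglandin D in mast cells, macrophages and microglia, read 1.80, -1.42 and 0.36 in 11C7 and 1.56, 1.06 and 2.61 in 7B12, with -2.005, -2.24 and -0.003 in NT and -1.70, -1.70 and 0.07 in IgG. The groups overlapped across numbers, because NT 3 and IgG 3 lay above 11C7 2, and the difference was 2.26 ± 0.47. The leukotriene enzyme gene Ltc4s lay the other way at -1.39 ± 0.40, and Ptges2 at 0.32 ± 0.10, neither of them a member. Ltc4s had -0.61 ± 0.49 in 11C7 and -2.18 ± 0.49 in 7B12. For Ltc4s, 11C7 2 and 11C7 3 lay 0.60 and -0.11 from the mean of their controls. Without 11C7 1 the differences were Ptges 1.76 and Hpgds 1.76. In the list of metallothioneins and antioxidant genes 0 of 19 were on the same side (median 0.05, and 0.07 without 11C7 1), with Sod2, the mitochondrial superoxide dismutase, at 1.48 ± 0.39 and the plasma peroxidase gene Gpx3 at 0.42 ± 0.16. Sod2 had 0.73 ± 0.47 in 11C7 and 2.24 ± 0.47 in 7B12. For Sod2, 11C7 2 and 11C7 3 lay -0.07 and -0.06 from the mean of their controls.

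**Figure D3:**
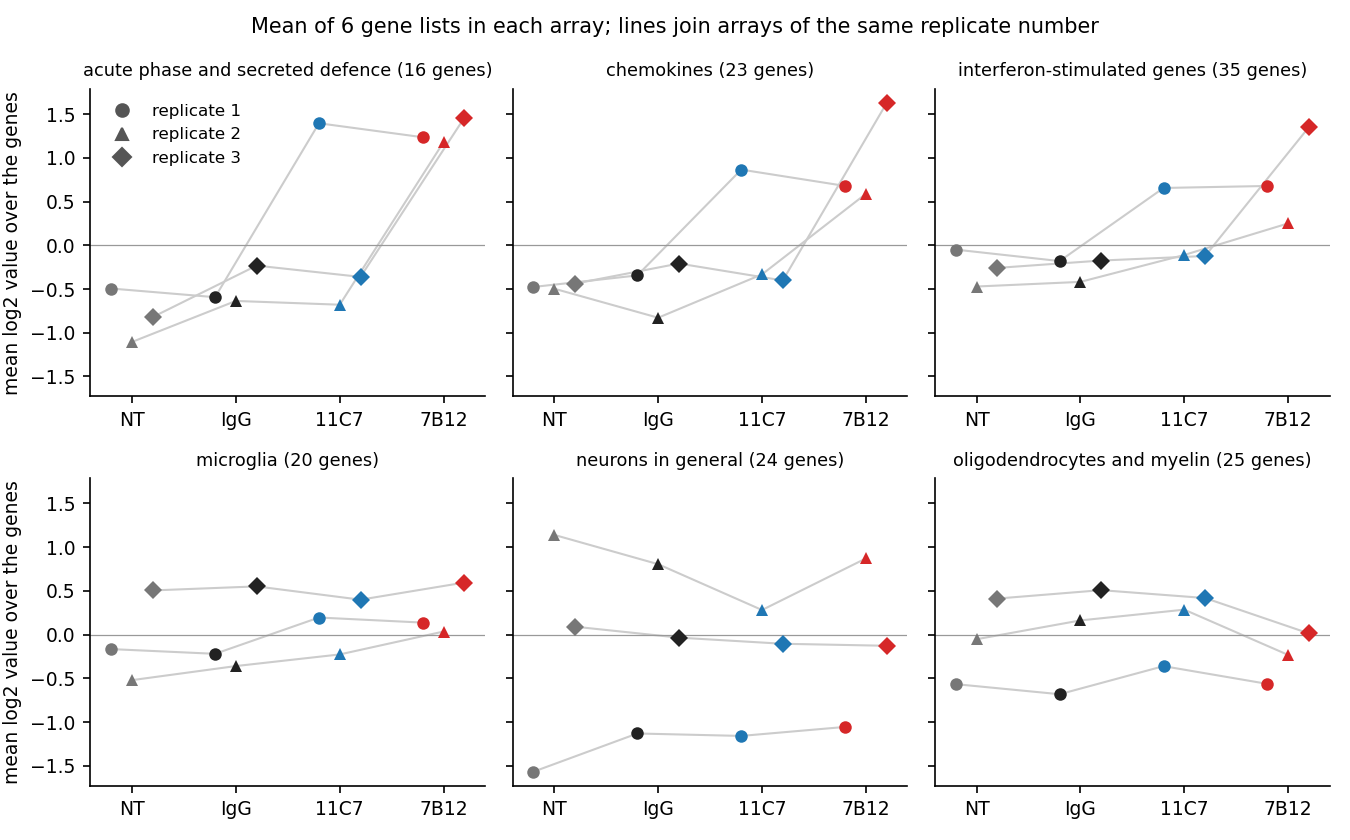
Mean log2 ratio less the array median (y axis) over 6 gene lists, 1 panel a list, in the groups NT, IgG, 11C7 and 7B12; circles, triangles and diamonds are the arrays numbered 1, 2 and 3, and lines join arrays of 1 number. In the acute-phase, chemokine and interferon panels 11C7 1 and the 3 arrays of 7B12 stand above the others, whereas general neuronal markers separate the numbers and not the groups.

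Other genes with wide margins were in none of these pathways. Man2a1, the Golgi mannosidase that trims N-glycans, lay at least 0.60 above its controls in each array. It read 0.41, 0.09 and 0.67 in 11C7 and 0.22, 0.08 and 0.99 in 7B12, against -0.59, -1.49 and -0.14 in NT and -0.60, -0.74 and 0.08 in IgG. Here 7B12 2, the lowest antibody array, was level with IgG 3, the highest control, and the difference was 0.99 ± 0.13. Pilra, an inhibitory receptor of myeloid cells, read 4.28, 0.18 and -0.10 in 11C7 and 3.74, 3.63 and 5.16 in 7B12, with controls at -1.38 to 0.16. Its difference of 3.38 ± 0.74 came mostly from 11C7 1 and the 3 arrays of 7B12. It was 2.67 without 11C7 1 and 2.59 with quantile normalization. Plac8, a small cysteine-rich protein of myeloid and lymphoid cells, read 0.65, 0.52 and -0.95 in 11C7 and 0.53, 1.61 and 1.24 in 7B12, against -1.46, 0.04 and -1.505 in NT and -1.55, 0.13 and -1.56 in IgG. Here the controls numbered 2 lay above 11C7 3, and the difference within numbers was 1.59 ± 0.31.

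Ppm1m, a protein phosphatase, read 0.91, 0.48 and -0.49 in 11C7 and 1.19, 0.17 and 0.57 in 7B12, against 0.03, -2.39 and -2.69 in NT and 0.37, -1.42 and -3.35 in IgG. The controls numbered 2 and 3 were low, and the difference was 2.04 ± 0.41. Nat8f3, of a family of acetyltransferases, read 0.74, 0.06 and 0.50 in 11C7 and 0.48, 0.57 and 0.21 in 7B12, against controls from -3.51 to 0.05. No groups overlapped, but IgG 2 and IgG 3 lay far below the other controls, and the difference was 1.67 ± 0.38. Tyms, the thymidylate synthase needed for DNA synthesis, read 0.64, 0.39 and 0.21 in 11C7 and 0.47, 0.16 and 0.81 in 7B12, all above the controls (-1.01 to 0.04), by 0.84 ± 0.16.

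Myof, a membrane repair protein, differed by 0.79 ± 0.19 and Rbpms, an RNA-binding protein, by 0.54 ± 0.11. In both genes the controls numbered 1 lay above 11C7 3, and Myof read 0.30, -0.30 and -1.54 in NT and 1.04, 0.16 and -0.53 in 11C7. Rassf4, which has a Ras-association domain, was among 3 genes with 2 higher probe sets. Its probe sets differed by 0.65 ± 0.14 and 0.67 ± 0.19, with 7B12 3 the highest array in both (1.36 in each). The others were Cd44 (0.38 ± 0.14 and 0.60 ± 0.17) and C19h1orf131 (0.35 ± 0.10 and 0.24 ± 0.11).

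Among higher probe sets whose 12-array median lay below 1, the widest margins with a gene symbol were those of Akr1c14, Sypl2 and Rnf207. Akr1c14, an aldo-keto reductase of steroid metabolism, read -1.38, -2.27 and -1.20 in 11C7, -0.61, -1.33 and -1.45 in 7B12, -3.16, -3.19 and -2.48 in NT and -3.37, -4.41 and -4.88 in IgG. All antibody arrays lay above all controls, by 2.21 ± 0.28. Sypl2, a synaptophysin relative of muscle, differed by 2.35 ± 0.70 with values from -1.58 to 2.24 in the antibody arrays. Rnf207, a RING finger protein of the heart, differed by 1.99 ± 0.40, and its antibody arrays ran from -1.47 to 1.73.

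On the lower side the 40 lists held 4 genes, and most lower genes were in none of them. Lrch4, a leucine-rich repeat protein, had the widest margin of the lower probe sets with 1 gene symbol and a 12-array median of 1. It read -0.50, -0.26 and -2.10 in 11C7 and -0.59, -0.30 and -0.02 in 7B12, against 0.43, 0.31 and 0.46 in NT and 0.12, 0.60 and 0.37 in IgG. All antibody arrays were below all controls, with 11C7 3 far below the rest, and the difference was -1.01 ± 0.30.

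Eif2s3y, a Y-linked gene for a translation initiation subunit, read -0.12, -0.71 and -0.61 in 11C7 and -0.05, -0.22 and -0.84 in 7B12, below all controls (0.18 to 0.63). The difference was -0.81 ± 0.15. Xist, the RNA of the inactive X chromosome, and the Y-linked Uty, looked at after this value was seen, differed by 0.78 ± 0.33 and -0.06 ± 0.38, and neither was on the same side throughout. The part of the sex of the pooled animals in these values was not tested.

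Prrc2c, a protein of stress granules, read -0.42, -0.03 and -0.21 in 11C7 and -0.73, -0.09 and -0.11 in 7B12 against 0.10 to 0.52 in the controls, a difference of -0.60 ± 0.12. Rhobtb3 read -0.07, -0.06 and -0.31 in 11C7 and 0.02, -0.60 and -0.66 in 7B12 against 0.08 to 0.43, a difference of -0.52 ± 0.11. In both genes the antibody arrays were separate from the controls. Cdhr2, a cadherin of microvilli, was separate as well, at -0.37 ± 0.12, with 7B12 2 the lowest array.

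Vwc2, a secreted antagonist of bone morphogenetic proteins, read -0.70, 0.53 and 0.14 in 11C7 and -0.62, 0.01 and -0.72 in 7B12, against -0.30, 0.93 and 0.47 in NT and -0.30, 1.12 and 0.89 in IgG. Its controls numbered 1 lay below 11C7 2 and 11C7 3, so the arrays differed within numbers only, by -0.70 ± 0.16. Crocc, the ciliary rootlet protein, read -0.15, -2.27 and -2.05 in 11C7 and 0.40, -1.59 and -1.15 in 7B12, against 0.78, -0.43 and 0.20 in NT and 0.59, 0.96 and 0.21 in IgG, a difference of -1.52 ± 0.32. Both antibody arrays numbered 1 lay above NT 2, and 7B12 1 also lay above NT 3 and IgG 3. Papolg, a poly(A) polymerase, read -1.66, -1.90 and 0.18 in 11C7 and -0.69, -0.01 and -0.78 in 7B12 against -0.07 to 0.63 in the controls, a difference of -1.12 ± 0.34.

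The sperm ion channel gene Catsper2 differed by -0.74 ± 0.15, the formin gene Fhod1 by -0.50 ± 0.12, the cytoskeletal linker gene Specc1l by -0.27 ± 0.07 and Bltp3a, of a family of lipid transfer proteins, by -0.54 ± 0.14. These 4 complete the 12 lower genes with the widest margins. Genes with 2 lower probe sets were the vesicle motor gene Kif1a (-0.38 ± 0.10 and -0.69 ± 0.24), the sorting receptor gene Sorl1 (-0.32 ± 0.11 and -0.32 ± 0.11), the adhesion gene Ntm (-0.53 ± 0.18 and -0.53 ± 0.12) and the phosphofructokinase gene Pfkm (-0.26 ± 0.12 and -0.24 ± 0.08). Without 11C7 2 the probe set of Pfkm at -0.26 stood at -0.17. Sorl1 and Tmem131 also had a probe set on the higher side, so that their probe sets disagree.

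**Figure D4:**
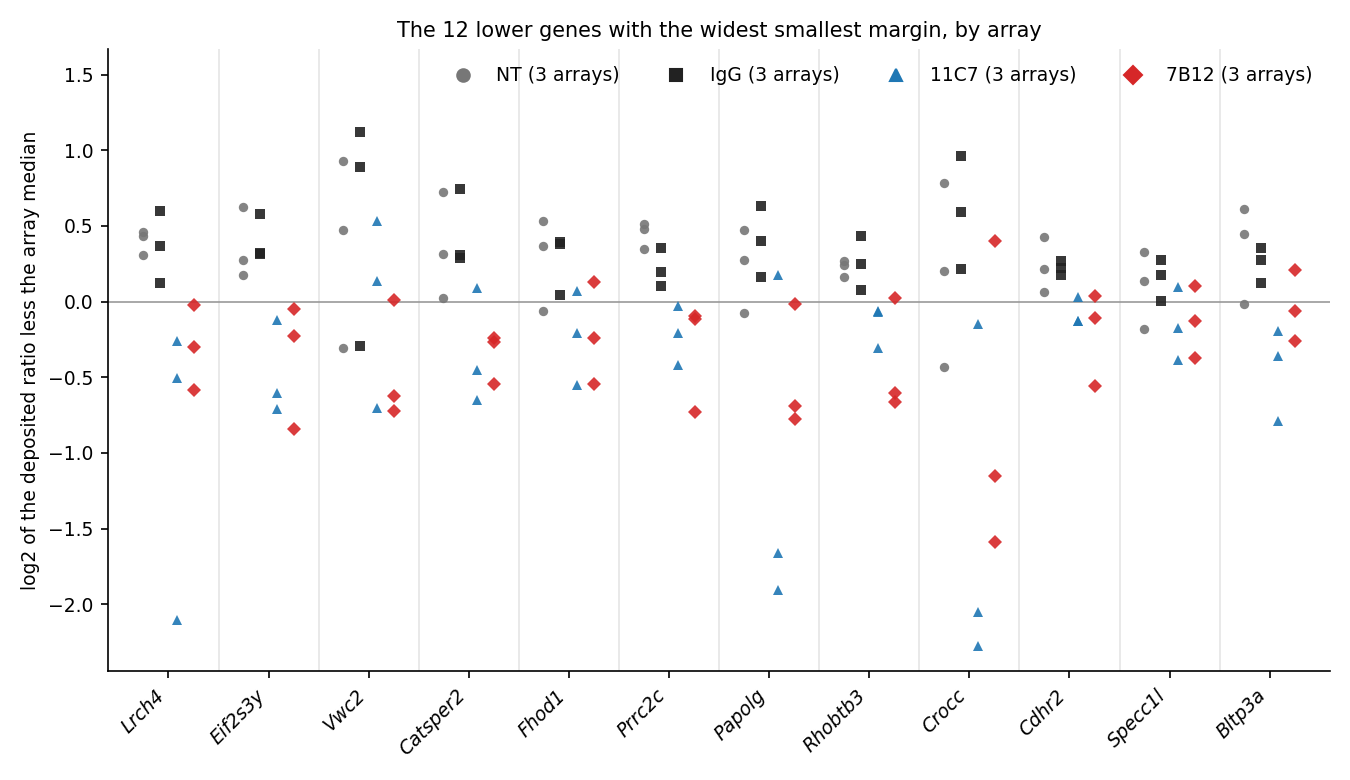
Log2 ratio less the array median (y axis) of the 12 lower probe sets with the widest margins among those with 1 gene symbol and a 12-array median of 1, 1 column a probe set, for the 3 arrays of each of the groups NT, IgG, 11C7 and 7B12 (points). In Eif2s3y, Prrc2c and Rhobtb3 the 6 antibody points lie below the 6 control points, and in Lrch4 11C7 3 (-2.10) lies far below the others.

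Among lower probe sets with a 12-array median below 1, Sema6c, a transmembrane semaphorin, read -3.08, -1.89 and -1.19 in 11C7, -2.33, -1.37 and -2.18 in 7B12, -0.23, 1.47 and 0.74 in NT and -1.58, -0.15 and 0.66 in IgG. Its difference was -2.16 ± 0.29, with IgG 1 below 11C7 3 and 7B12 2. Sag, the arrestin of photoreceptors, differed by -2.20 ± 0.43, and the Tmem131 probe set of this side by -3.12 ± 0.54.

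Markers of the cell types a slice can hold were measured beside the immune genes. Of 20 microglial markers 0 were on the same side, 14 had a difference above 0, 5 were higher and 2 lower at an unadjusted p under 0.05, and the median was 0.19, or 0.13 without 11C7 1. Their mean ran from -0.23 to 0.60 in the antibody arrays and from -0.52 to 0.55 in the controls, and Siglec5 and Tmem119, surface proteins of microglia, differed by 1.95 ± 0.43 and 0.64 ± 0.16. Of 11 markers of border macrophages 0 were on the same side and 9 were above 0, with a median of 0.56, which was 0.40 without 11C7 1, 0.86 without 11C7 2 and 0.87 without 7B12 1. Their mean ran from -0.60 to 0.62 in the antibody arrays and from -0.91 to -0.27 in the controls, with Folr2 and Ms4a7 at 1.65 ± 0.36 and 2.12 ± 0.47. Of 21 blood cell markers 0 were on the same side and 15 were above 0 (median 0.34, and 0.22 without 11C7 1, 0.54 without 11C7 2, 0.53 without IgG 2 and 0.51 without NT 3), with means from -1.47 to -0.33 against -1.74 to -0.72. The blood cell median was 0.03 against IgG alone and 0.48 against NT alone. Of the 26 probe sets of this list, 19 had a 12-array median below 1, as did 23.6% of all probe sets. Cd79b of B cells and Lck of T cells differed by 1.91 ± 0.58 and 0.34 ± 0.11. Lck was 0.09 against IgG alone and 0.59 against NT alone. The part of these cells in the immune results was not tested.

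Astrocyte and endothelial markers held 1 lower gene each. Of 22 astrocyte markers, Aldoc, the glycolytic aldolase of brain, was lower at -0.28 ± 0.09, 7 had a difference above 0 and the median was -0.10, which was -0.02 without 11C7 2 and about -0.05 without 7B12 3 or NT 2. The Aldoc arrays read 0.12, -0.32 and -0.17 in 11C7 and 0.09, -0.24 and -0.50 in 7B12 against 0.21, 0.13 and -0.06 in NT and 0.24, 0.08 and 0.04 in IgG. Angiotensinogen, Agt, differed by -0.56 ± 0.16 and the secreted chaperone gene Clu by 0.37 ± 0.11. Of 20 endothelial markers Slco1c1, the thyroid hormone transporter of brain vessels, was lower at -0.59 ± 0.12, with -0.28, 0.14 and -0.12 in 11C7, -0.25, -0.44 and -0.82 in 7B12, 0.65, 0.36 and -0.02 in NT and 0.34, 0.35 and 0.09 in IgG. The endothelial median of -0.10 ran from -0.24 without NT 3 to 0.00 without NT 1, with 8 of the 20 genes above 0. Mmrn2 differed by -1.30 ± 0.28, of which 11C7 had -0.28 ± 0.34 and 7B12 -2.32 ± 0.34, and Emcn by -0.64 ± 0.20, with -0.25 ± 0.24 in 11C7 and -1.03 ± 0.24 in 7B12. Of 27 markers of fibroblasts, meninges and mural cells the actin-binding protein gene Tagln was higher at 0.49 ± 0.14 (median 0.07), with Fn1 at 0.33 ± 0.12. For Fap the mean of -0.76 ± 0.28 joined opposite values, -1.83 ± 0.34 in 11C7 and 0.30 ± 0.34 in 7B12.

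Among 12 markers of oligodendrocyte precursors Ptprz1, a receptor phosphatase that carries chondroitin sulfate, was lower at -0.20 ± 0.08 (median -0.15, and -0.09 without 7B12 3), and Sox10 and Sox4 differed by 0.24 ± 0.11 and -0.24 ± 0.13, the latter -0.14 without NT 3. No single probe set of this list met the rule, so Ptprz1 was lower only by the mean of its probe sets. Of 25 genes of oligodendrocytes and myelin, the cells best known for Nogo-A, 0 were on the same side, where 1.36% of all genes were higher and 0.739% lower. Of the 25, 0 passed an unadjusted p of 0.05 (median 0.01, with Mal at -0.37 ± 0.16, or -0.24 without 7B12 3, and Cryab at 0.16 ± 0.09). None of 24 general neuronal markers was on the same side or passed that limit (median -0.05), with Map2 at -0.36 ± 0.18 and Nefh at -0.50 ± 0.28. Map2 was -0.20 without 11C7 2, and Nefh -0.26 without 11C7 1 and -0.76 without 11C7 3. The same counts held for 21 markers of hippocampal principal neurons (median -0.03, Crym 0.60 ± 0.33, Iyd 0.85 ± 0.47). Crym was 0.33 without 11C7 1 or NT 1, and Iyd 0.44 without 11C7 3 and 0.48 without IgG 3. Of 19 interneuron markers 0 were on the same side (median 0.02, Dlx5 -1.09 ± 0.30, Cnr1 -0.39 ± 0.17, or -0.23 without 11C7 2), and of 11 markers of ependyma and choroid plexus also 0 (median 0.00, Tmem212 -0.34 ± 0.15). Otx2, of the choroid plexus, had -0.18 ± 0.61 in 11C7 and 1.87 ± 0.61 in 7B12. Dlx5, Iyd and Otx2 had only probe sets with a 12-array median below 1. Against IgG alone Dlx5 was -1.565 and Cnr1 -0.18, and against NT alone each was -0.61. The 3 neuronal medians changed sign with the array left out, from -0.23 to 0.08 for general markers. By single probe sets, 1 of the general neuronal list and 1 of the interneuron list were lower, and 0 were higher.

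Genes of neurite growth and of synapses, with which Nogo-A is most often studied, gave 0 members by the mean of their probe sets. Over all genes 1.36% were higher and 0.739% lower, and nothing is read from 0 in a list of this size. In the Nogo pathway list 0 of 20 genes were on the same side (median -0.02), with the reticulon gene Rtn2 at 0.27 ± 0.10 and the Lgi receptor gene Adam22 at 0.34 ± 0.18, which was 0.20 without 7B12 3, 0.19 without NT 3 and -0.34 against IgG alone. Of 34 growth cone and regeneration genes 0 were on the same side (median 0.05), with the cofilin phosphatase gene Ssh1 at 0.42 ± 0.12 and profilin, Pfn1, at 0.41 ± 0.12. By single probe sets, 2 of this list were higher and 0 lower. Of 45 axon guidance genes 0 were on the same side (median -0.04), with the semaphorin co-receptor gene Nrp1 at -0.66 ± 0.16 and Epha3 at -0.37 ± 0.12. Of 32 neurotrophins and growth factors 0 were on the same side (median -0.03), with Igf1 at -0.97 ± 0.25 and Igfbp3 at 0.41 ± 0.12.

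Of 43 glutamate receptor and postsynaptic genes 0 were on the same side, 10 were above 0 and 4 were lower at an unadjusted p under 0.05. Their median of -0.18 was -0.03 without 11C7 2 and -0.11 without NT 2, with the receptor subunit genes Grin2c at -0.59 ± 0.17 and Grik2 at -0.41 ± 0.13. Of 22 GABA and glycine genes 0 were on the same side and 8 were above 0. Their median of -0.23 was -0.01 without 11C7 2, -0.05 without NT 2 and between -0.14 and -0.11 without 7B12 1, 7B12 2 or 7B12 3, with the receptor subunit gene Gabra2 at -0.61 ± 0.20. Abat, the enzyme that breaks down GABA, differed by -0.64 ± 0.18, of which 11C7 had -1.26 ± 0.22 and 7B12 -0.03 ± 0.22. Of 55 ion channel genes 0 were on the same side and 15 were above 0, with a median of -0.15 that was -0.04 without 11C7 2, -0.06 without 7B12 3 and -0.10 without 7B12 1. Cacna1b and Kcnc2, channels for calcium and potassium, differed by -0.40 ± 0.17 and -0.54 ± 0.23, the second of them -0.32 without IgG 3. Of 36 presynaptic genes 0 were on the same side by the mean of their probe sets (median -0.08), with Sypl2 at 1.49 ± 0.49 and the vesicle protein gene Syt4 at 0.24 ± 0.12, or 0.15 without 11C7 1. The presynaptic median changed sign, to 0.002 without 11C7 2, 0.004 without NT 2 and 0.05 against IgG alone.

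Of 24 immediate early genes 0 were on the same side (median -0.04), with the phosphatase gene Dusp5 at -0.63 ± 0.10 in 11C7 and 0.03 ± 0.10 in 7B12. Fosl2 had 0.08 ± 0.19 in 11C7 and 1.01 ± 0.19 in 7B12, and its mean of 0.54 ± 0.15 was -0.05 when probe sets with a 12-array median below 1 were left out. Cytosolic ribosomal protein genes were above 0 in 32 of 34, with 0 on the same side and a median of 0.16 that was 0.09 without 11C7 1. Rps28 and Rpl22 differed by 0.22 ± 0.09 and 0.27 ± 0.11. Of 44 respiratory chain genes 0 were on the same side (median 0.00, Ndufb8 -0.26 ± 0.14, or -0.14 without 11C7 2, Ndufa2 0.19 ± 0.10), and of 27 genes of cholesterol synthesis and efflux 0 (median 0.01, Ch25h 0.44 ± 0.14). Sc5d had -0.01 ± 0.08 in 11C7 and -0.33 ± 0.08 in 7B12.

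In the list of unfolded protein and heat shock genes 1 of 29 was higher (median 0.07): Ddit3, a transcription factor induced by stress of the endoplasmic reticulum. It read 0.38, 0.86 and -0.11 in 11C7 and 0.31, 0.51 and 0.45 in 7B12, against -0.85, -0.14 and -0.35 in NT and -0.51, 0.21 and -0.24 in IgG. 11C7 3 lay below IgG 2 but above the controls numbered 3, and the difference was 0.71 ± 0.15. Atf4, which drives Ddit3, and the kinase gene Eif2ak3 differed by 0.23 ± 0.10 and -0.23 ± 0.10. In the cell cycle list 1 of 39 genes was higher, Tyms, and 28 were above 0. The median of 0.12 was 0.04 without 11C7 2, 0.07 without 7B12 3 or IgG 2 and 0.20 without 11C7 3, with Tk1, the thymidine kinase, at 0.24 ± 0.08 and the inhibitor gene Cdkn1a at 0.34 ± 0.15.

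The gene of the antibodies' target and those of its receptors were not among the members. Rtn4, as the mean of 2 probe sets whose isoforms are not given in the sources used here, was 0.048 ± 0.145 in the antibody arrays and 0.073 ± 0.107 in the controls (SD, n = 6 each). Permuting the arrays within their number gave a two-sided exact p of 0.5185 over 216 arrangements, where the smallest p possible is 0.0093. The receptor gene Rtn4r differed by -0.36 ± 0.27, and it was -0.18 without 11C7 2 and -0.12 without 7B12 1. Its relatives Rtn4rl1 and Rtn4rl2 differed by -0.17 ± 0.14 and 0.66 ± 0.36. The co-receptor genes Lingo1, Ngfr and Tnfrsf19 differed by -0.32 ± 0.23, 0.45 ± 0.35 and -0.09 ± 0.16, and S1pr2 by 0.24 ± 0.14. Each of these was within about 2 standard errors of 0, and Ngfr and Tnfrsf19 changed sign against a single control group, to -0.40 against NT for Ngfr and 0.05 against IgG for Tnfrsf19. Single arrays moved most of these values: the difference was 0.11 for Ngfr without IgG 2, -0.11 for Lingo1 without NT 2, and -0.06 and -0.07 for Rtn4rl1 without 11C7 2 or NT 2. For Rtn4rl2 it was 0.39 without 11C7 1 and 1.02 without 11C7 2, for S1pr2 0.15 to 0.37, and for Tnfrsf19 -0.20 to -0.01.

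The antibodies shared the direction of the members by the rule, and their sizes were compared in the same fit. 7B12 lay further from the controls than 11C7 in 216 of the 328 higher probe sets (65.9%) and in 145 of the 251 lower (57.8%). The difference between 7B12 and 11C7 passed an unadjusted p of 0.05 in 16 of the 328 higher and 12 of the 251 lower, where 7.04% of all probe sets did, and in 0 after adjustment. The rule holds both antibodies on 1 side of the controls and so limits this difference, and nothing is read from these shares. The lowest adjusted p among them was 0.698 and 0.55, and 0.487 over all probe sets. For Saa3 the difference between the antibodies was 3.61 ± 1.21 and for Pilra 2.73 ± 1.04, with 7B12 higher in both.

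Without 11C7 1, 27 probe sets separated 7B12 from 11C7 after adjustment, and without 11C7 3 there was 1. The controls differed from each other at an unadjusted p under 0.05 in 9 of the 328 higher and 2 of the 251 lower probe sets, where 3.41% of all probe sets did, and IgG lay above NT in 161 of 328 and 98 of 251. A wide gap between NT and IgG makes the rule harder to meet, so nothing is read from these counts either. None of those probe sets passed the adjusted limit between IgG and NT in limma (lowest adjusted p over all probe sets 0.0906, with 1059 at an unadjusted p under 0.05), and 1 probe set passed it without NT 2.

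The array that came closest to its controls was most often 11C7 3. It held the smallest margin in 138 of the 328 higher probe sets (42.1%) and 74 of the 251 lower (29.5%), against 20 and 25 probe sets for 7B12 3. In the higher probe sets the median distance from the mean of the same-number controls was 0.39, 0.49 and 0.19 in 11C7 1, 2 and 3, and 0.33, 0.43 and 0.59 in 7B12 1, 2 and 3. In the lower probe sets it was -0.43, -0.40 and -0.27 in 11C7 and -0.37, -0.34 and -0.58 in 7B12. The arrays of the 2 antibodies numbered 3 thus lay furthest from and nearest to the same controls. Leaving out 11C7 3 left 1113 higher and 678 lower probe sets, and leaving out 11C7 2 left 631 and 602. On the higher side the count also grew by more than 1.5 times without 7B12 2 (551), IgG 2 (534), IgG 3 (620), NT 2 (503) or NT 3 (503). On the lower side every array left out moved it so far, to 394 without 11C7 1, 402, 483 and 399 without 7B12 1, 2 and 3, 400, 486 and 481 without IgG 1, 2 and 3, and 402, 393 and 422 without NT 1, 2 and 3.

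**Figure D5:**
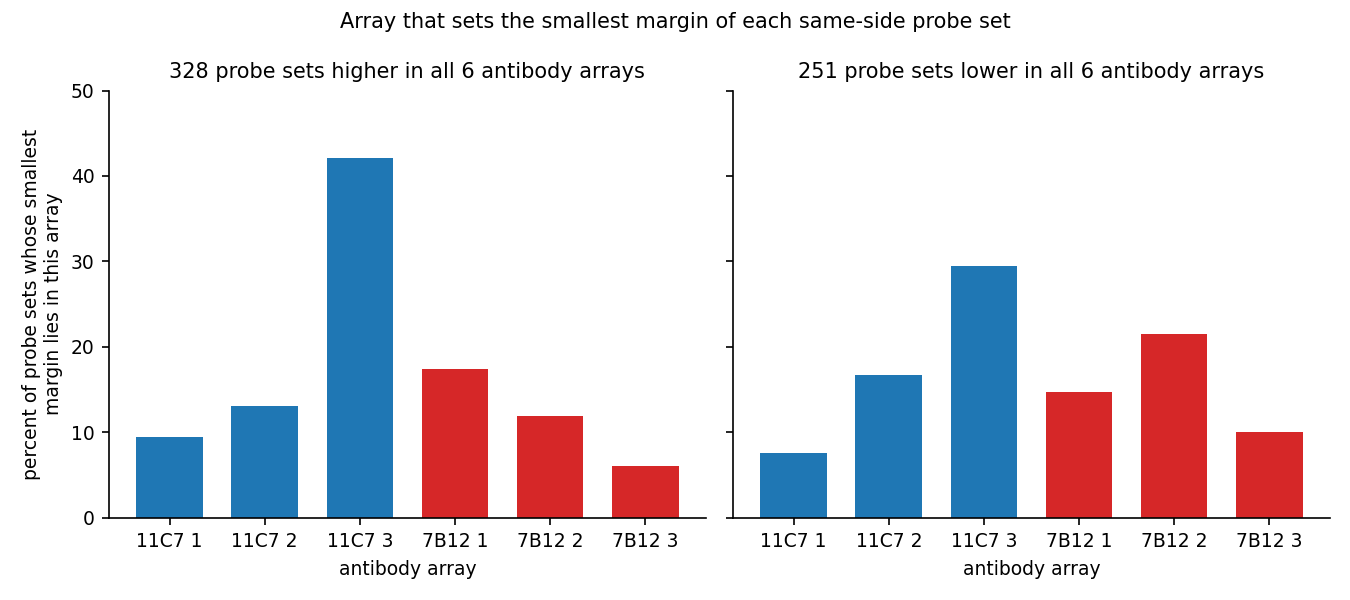
Percent of the probe sets on the same side (y axis, from 0) whose smallest margin to the same-number controls lies in each of the 6 antibody arrays (x axis), for the 328 higher and the 251 lower probe sets in 1 panel each. 11C7 3 has the highest bar in both panels (42.1% and 29.5%), and 7B12 3 has the lowest of the higher panel (6.1%).

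Other probe sets of the same genes were read as well, on the same arrays that chose the genes. For 98 of the higher genes the array held 155 further probe sets, of which 117 (75.5%) had a difference above 0, and over all probe sets 49.7% did. Of the 155, 30 passed an unadjusted p of 0.05 in the same direction and 3 in the opposite one. Over all probe sets, 4.46% were higher and 3.76% lower at this limit. For 86 of the lower genes there were 149 further probe sets, 107 of them (71.8%) with a difference below 0, 15 past that limit in the same direction and 4 in the opposite one. Probe sets of 1 gene share its RNA and arrays, so they are repeat readings of the same samples, and a shared sign is no separate support.

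The rule has a threshold of 0 on the smallest margin, and probe sets on either side of it lay close together. Just inside on the higher side were Rab8a and Rab5if, with smallest margins of 0.00018 and 0.00074, and just outside Zfp580 and Slc25a13 with -2.3e-05 and -0.0009. On the lower side Mtor and Ppp3cc were just inside, with 7.5e-05 and 0.00028, and Acss2 and Cdkn1b just outside, with -0.00083 and -0.00097. A margin of at least 1.2-fold was kept by 34 of the higher and 24 of the lower probe sets.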

How the data were processed

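Biotin-labelled cRNA of 12 samples was hybridised to Affymetrix rat arrays, 3 arrays per group, per the labels' protocols. Groups and replicate numbers came from the sample titles. GCOS 1.4 and MAS5 (no version given) are named per the submitters' processing notes. Per the series' design text, the authors also filtered on present calls, normalized per array and per gene to the median of the controls, and applied a 1-way analysis of variance with a 1.2-fold limit. What the authors deposited is 1 ratio per probe set and array. The median over the 12 arrays was 1, to within 0.0015, for 76.4% of probe sets, and that over the 6 controls for 11.2%, so the reference of a probe set looks like its 12-array median and not the control median of the design text. In 7319 probe sets (23.6%) the 12-array median lay below 1. A constant divisor per probe set leaves log2 differences between arrays as they are.

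Of 31099 probe sets, 57 spike-in controls were left out. By the platform annotation, 20826 probe sets (67.1%) had 1 gene symbol, 436 several and 9780 none here. Symbols were checked through Entrez identifiers for 20758 probe sets, which changed 0. For each array, log2 ratios were centred on their median over the 31042 probe sets. The 67 values at the lowest ratio, 0.01, were kept. Group means and the replicate number were fitted in limma 3.58.1 (R 4.3.3) over all 12 arrays, with 6 residual degrees of freedom, eBayes without a trend, two-sided p-values adjusted by the Benjamini-Hochberg method across the table, and an adjusted threshold of 0.05. The fit was tested on simulated data. For genes, the same fit used the mean of the probe sets with 1 symbol.

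The smallest margin of a probe set is the lowest distance, over the 6 antibody arrays, to the nearer same-number control. Named were the 15 higher and 12 lower probe sets with the widest margins among those with a 12-array median of 1, and 3 of each direction among the others. Also named were genes with 2 or more probe sets on the same side, up to 4 same-side members of each list, up to 2 further members by unadjusted p, Rtn4 and its receptor genes, and probe sets next to the threshold. Members, the 40 lists and this rule were chosen with earlier results of these data known. Rtn4 was tested by exact permutation of arrays within numbers. Promoters came from RefSeq (GRCr8), matched by gene symbol. Alternatives were other scalings, quantile normalization, a pseudocount of 0.1, fits without the block, with a trend or with array weights, each control alone, each array or number left out, a 1.2-fold margin, and the methods' analysis of variance. Arrays have no read depth, and the number of arrays limits the precision.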

Additional observations from a re-analysis of the deposited data

Results flagged for a closer look

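Among the antibody and the control arrays of the named probe sets, 92 sets of 6 arrays were examined, and in 6 (6.5%) 1 array stood away from the other 5 by more than 0.625 of the range of the set; chance alone marks about 1 in 20 sets. In the antibody arrays, 7B12 3 stood at 1.356 for the Rassf4 probe set with the wider margin, where the nearest array was at 0.537. The gap was 0.629 of the range. For Lrch4, 11C7 3 stood at -2.104 and its nearest array at -0.587 (0.729 of the range). For Cdhr2, 7B12 2 stood at -0.559 and the nearest array at -0.13 (0.721). For the lower probe set of Tmem131, 11C7 2 stood at -2.914 and the nearest array at -4.964 (0.811). In the control arrays, IgG 1 stood at -1.181 for Sypl2, with the nearest at -1.993 (0.762), and NT 2 at -0.31 for the other Rassf4 probe set, with the nearest at -0.122 (0.743).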

How the results depend on the processing

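No probe set passed the adjusted threshold between both antibodies and both controls under any of the 27 alternatives tried, limma fits and the methods' analysis of variance alike. At an unadjusted p under 0.05, 735 probe sets were higher and 607 lower with no replicate block, against 1385 and 1166 with it, and the methods' analysis of variance with the 1.2-fold limit gave 394 and 341. Arrays of 1 number deviated together in 17 of 18 pairs past a correlation of 0.1 (0.086 to 0.423), and arrays of different numbers correlated between -0.293 and 0.081. All 12 arrays correlated best with their own number. The labels do not say that a number marks a shared litter or day, so the pairing is a hint from the data. The block changed no other call. The same-side counts of 328 higher and 251 lower probe sets became 1246 and 1113 against IgG alone, 1398 and 1450 against NT alone, 34 and 24 with a margin of at least 1.2-fold, and 194 and 105 by the mean of the probe sets of each gene. With 1 array or 1 number left out they ran from 413 to 1569 and from 393 to 1360, which follows from fewer conditions to meet. With the values as deposited, 253 of the higher and 213 of the lower probe sets remained, with quantile normalization 284 and 218, and with the 75th percentile removed 269 and 220. Between 7B12 and 11C7, 0 to 27 probe sets passed with 1 array left out, and between IgG and NT 0 to 1. Lists with a median above 0 numbered 26 of 40. Of the 160 named values, 5 genes changed sign in some setting: Adam22 to -0.335 and Tnfrsf19 to 0.05 against IgG alone, Tk1 to -0.003 and Ngfr to -0.400 against NT alone, and Fosl2 to -0.047 without probe sets of a median below 1. For Tnfrsf19 the values with an array or number left out ran from -0.204 to 0.012. The cause was not tested. Ratios give no signal over background, and 3 arrays a group limit what can pass.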

Other observations

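3 further groups of genes were drawn up after the same-side genes had been seen, so their counts describe and support nothing. Of 19 aminoacyl-tRNA synthetase genes, whose products load amino acids onto tRNA, 3 were higher by the mean of their probe sets: Tars1 at 0.24 ± 0.10, Yars1 at 0.34 ± 0.13 and Qars1 at 0.11 ± 0.06, and 15 of the 19 lay above 0 (median 0.10). Of 18 circadian clock genes Dbp, an output gene of the clock, was lower at -0.30 ± 0.14, and 6 lay above 0 (median -0.03). Of 15 glycolysis genes Aldoc was lower by the mean of its probe sets, 7 lay above 0 and the median was 0.00. By single probe sets, 3 of this list were lower, and the 2 lower probe sets of Pfkm are given above.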
